A study of Homo sapiens with 12 samples.

Results

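The IGF receptor axis was followed through 10 genes, taken by symbol from the gene table: the receptors IGF1R, INSR and IGF2R, the receptor substrates IRS1 and IRS2, and the IGF binding proteins IGFBP3, IGFBP4, IGFBP5, IGFBP6 and IGFBP7. All 10 were found among the 23497 genes of the table and all 10 were among the 17114 genes with enough counts to be tested. RNA was measured in WM1366, an established human melanoma line with mutant NRAS. The drug-sensitive parent was cultured with DMSO, the solvent of the drugs. Its 3 daughter lines were kept in a BRAF inhibitor joined to a MEK inhibitor: encorafenib and binimetinib (EB-resistant), vemurafenib and cobimetinib (VC-resistant) or dabrafenib and trametinib (DT-resistant). Each group had 3 libraries of polyadenylated RNA taken 72 hours after seeding, numbered 2, 5 and 6, from independent experiments.

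The type 1 IGF receptor and the insulin receptor are related tyrosine kinases that bind IGF1, IGF2 and insulin and pass the signal to the docking proteins IRS1 and IRS2, which recruit PI3 kinase. IGF2R is a receptor without kinase activity that carries IGF2 and mannose 6-phosphate tagged enzymes to lysosomes. The secreted IGF binding proteins hold IGFs away from the receptors or deliver them on release by proteases, and in melanoma the axis is known as a route by which cells can keep PI3 kinase signalling active under inhibitors of the RAF and MEK kinases.

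The 250 bases before the RefSeq transcription start (GRCh38.p14) are shown for the 3 receptors, for the substrate that differed most between groups, IRS2, and for the binding proteins IGFBP3 and IGFBP4, which differed most between EB-resistant and sensitive cells. They are written 5′ to 3′ on the strand of the gene, and capitals mark matches to the motifs searched, on either strand.
IGF1R promoter, chr15:98648289-98648538, plus strand: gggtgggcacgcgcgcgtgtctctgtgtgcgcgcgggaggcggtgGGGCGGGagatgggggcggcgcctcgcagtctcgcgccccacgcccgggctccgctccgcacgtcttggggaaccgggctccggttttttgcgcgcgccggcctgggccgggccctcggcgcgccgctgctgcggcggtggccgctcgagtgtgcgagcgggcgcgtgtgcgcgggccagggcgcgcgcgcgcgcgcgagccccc
INSR promoter, chr19:7294415-7294664, minus strand: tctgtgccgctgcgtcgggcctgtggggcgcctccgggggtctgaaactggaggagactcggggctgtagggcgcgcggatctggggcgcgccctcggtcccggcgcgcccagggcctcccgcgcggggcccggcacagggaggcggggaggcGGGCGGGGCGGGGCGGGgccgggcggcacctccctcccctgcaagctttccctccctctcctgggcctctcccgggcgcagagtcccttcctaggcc
IGF2R promoter, chr6:159968832-159969081, plus strand: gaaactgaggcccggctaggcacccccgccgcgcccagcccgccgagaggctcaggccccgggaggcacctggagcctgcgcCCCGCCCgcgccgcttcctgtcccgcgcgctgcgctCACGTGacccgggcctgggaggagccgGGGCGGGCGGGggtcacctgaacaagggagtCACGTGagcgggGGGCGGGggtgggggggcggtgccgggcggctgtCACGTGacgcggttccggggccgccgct
IRS2 promoter, chr13:109786584-109786833, minus strand: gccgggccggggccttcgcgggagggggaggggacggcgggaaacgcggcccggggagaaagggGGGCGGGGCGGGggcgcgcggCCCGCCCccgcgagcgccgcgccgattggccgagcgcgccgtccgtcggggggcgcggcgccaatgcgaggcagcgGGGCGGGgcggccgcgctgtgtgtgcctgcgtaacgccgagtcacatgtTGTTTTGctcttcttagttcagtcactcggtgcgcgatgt
IGFBP3 promoter, chr7:45921273-45921522, minus strand: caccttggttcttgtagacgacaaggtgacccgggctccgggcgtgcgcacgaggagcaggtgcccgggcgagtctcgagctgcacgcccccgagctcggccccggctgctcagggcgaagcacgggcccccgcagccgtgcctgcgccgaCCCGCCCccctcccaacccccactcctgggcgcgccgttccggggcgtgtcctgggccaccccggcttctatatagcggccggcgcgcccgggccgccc
IGFBP4 promoter, chr17:40443200-40443449, plus strand: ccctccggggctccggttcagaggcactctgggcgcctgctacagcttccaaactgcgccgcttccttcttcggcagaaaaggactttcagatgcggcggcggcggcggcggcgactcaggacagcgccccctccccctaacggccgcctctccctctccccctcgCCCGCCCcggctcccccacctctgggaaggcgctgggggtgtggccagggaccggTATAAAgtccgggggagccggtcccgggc

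A RefSeq promoter was matched for 9 of the 10 genes (IGFBP7 had no entry). The motifs searched were the GC box GGGCGGG, the E-box CACGTG, the TATA box TATAAA, the AP-1 site TGACTCA, the forkhead site GTAAACA and the insulin response sequence TGTTTTG, each on both strands, and matches to the same motif may overlap. The GC box occurred in 31.5% of 35116 promoter windows of this length, and in 7 of the 9 here: 1 match for IGF1R, IGFBP3 and IGFBP4, 3 for INSR and IRS1, and 4 for IGF2R and IRS2. The 3 INSR matches overlap in a single run, 97, 92 and 87 bases before the start, and the IRS2 matches lie 186, 181, 165 and 89 bases before the start, the 2 farthest overlapping. IGF2R carried 3 E-boxes, 132, 74 and 28 bases before its start. At least 1 E-box was present in 6.34% of all windows, and 3 or more in 0.0797% (28 promoters). IRS2 held TGTTTTG 40 bases before its start (4.30% of windows), IGFBP4 held TATAAA at 29 bases (10.7%), and IGFBP6 held GTAAACA at 186 bases (2.98%). TGACTCA (4.20% of windows) was found in none of the 9, and IGFBP5 held none of the 6 motifs. These matches describe letters in a window and say nothing of binding.

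Library totals lay between 40491309 and 54495132 counts. Levels are given as CPM, counts divided by the library total after TMM scaling, which keeps a few abundant genes from shifting all others. Differences are log2 fold changes (log2FC) ± standard error from edgeR's quasi-likelihood test, with p-values adjusted by Benjamini-Hochberg over all genes tested. A gene is said to have risen or fallen only at an adjusted p of 0.05 or less. DUSP6, a phosphatase gene induced by ERK signalling, was lower in all 3 resistant lines (log2FC -4.24 to -1.49), as was the cyclin D1 gene CCND1 (log2FC -3.49 to -1.24). Of the melanocyte lineage markers, MITF and PAX3 were present in every group, PMEL, TYRP1, DCT and S100A1 had mean levels under 1 CPM, and TYR, MLANA, SOX10 and S100B have no entry in the table used. The summed level of 7 fibroblast markers ranged from 1.83 to 2.52 CPM over the sensitive libraries, from 129 to 164 CPM with EB, from 12.1 to 30.7 CPM with VC and from 110 to 217 CPM with DT resistance. Most of it was LUM and, in EB-resistant cells, PDGFRB and COL1A1, while DCN and PDGFRA stayed at or below a mean of 0.146 CPM in every group. Of 6 epithelial and keratinocyte markers, 3 have no entry in the table used, and the sum of the others, nearly all KRT18 and KRT8, was 269 to 348 CPM in sensitive libraries, 182 to 207 CPM with EB, 79.0 to 96.4 CPM with VC and 62.3 to 67.3 CPM with DT resistance, with CDH1 at a mean of at most 0.159 CPM. Summed immune markers reached at most 1.3 CPM and endothelial markers at most 7.38 CPM. The part of these markers in the results that follow was not tested.

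Each resistant line is a single line per drug pair, so the errors describe spread between experiments, and resistance, the presence of drug and culture history cannot be told apart. The 3 comparisons with sensitive cells share the same sensitive libraries. In EB-resistant against sensitive cells 2 of the 10 genes rose (IGF2R, IGFBP3) and 3 fell (INSR, IGFBP4, IGFBP6), where 56.1% of all genes tested were called, 28.5% higher and 27.6% lower. In VC-resistant cells 1 rose (IRS2) and 2 fell (IGFBP6, IGFBP7), against a background of 55% called, 27.6% higher and 27.4% lower. In DT-resistant cells 5 rose (IGF1R, INSR, IGF2R, IRS2, IGFBP7) and 2 fell (IGFBP4, IGFBP6), against 59.1% called, 29.8% higher and 29.3% lower. The share of the 10 genes called was thus near or below that of all genes in EB- and VC-resistant cells and somewhat above it in DT-resistant cells, and with 10 genes none of these shares is read as particular to the axis. Without the replicate 2 libraries of all 4 groups, a setting chosen after seeing the data, the counts were 9 of 10 in EB-resistant, 7 of 10 in VC-resistant and 9 of 10 in DT-resistant cells, where 58.8%, 56.6% and 58.6% of all genes tested were called. The median log2FC of the 10 genes was 0.20, 0.18 and 0.31 in the EB-, VC- and DT-resistant lines, against -0.0046, -5.4e-06 and -0.0054 for all genes tested. IGFBP6 was the 1 gene called in the same direction in all 3 lines, and INSR and IGFBP7 were called in opposite directions in a pair of lines. How often all genes tested showed such patterns was not counted, so neither is read as particular to the axis.

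**Figure D1:**
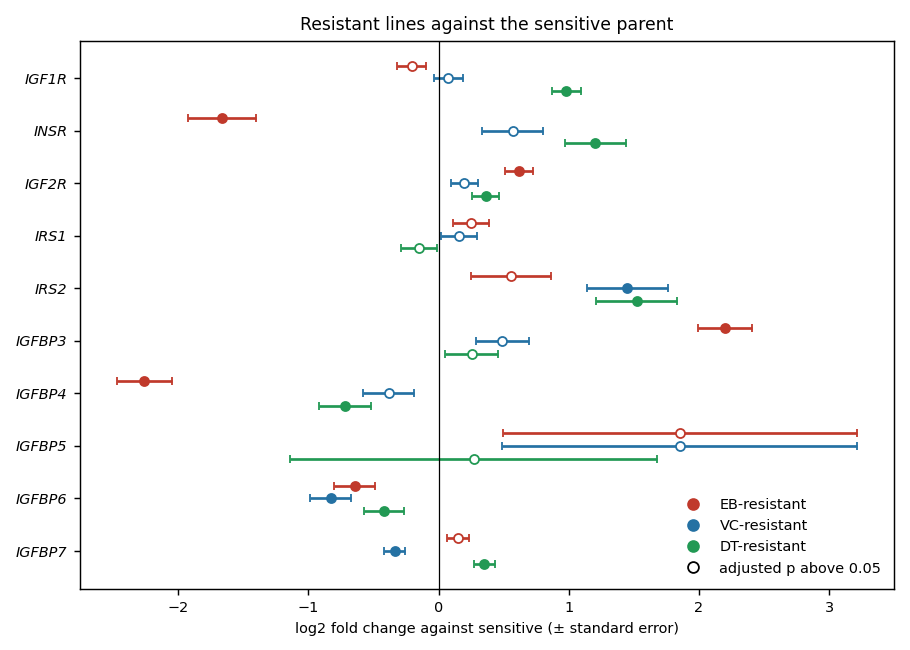
Log2 fold change of each gene in the EB-, VC- and DT-resistant lines against sensitive cells, with bars of ± 1 standard error and open circles for an adjusted p above 0.05. INSR falls to -1.66 in EB-resistant and rises to 1.20 in DT-resistant cells, IGFBP3 and IGFBP4 lie at 2.2 and -2.26 in EB-resistant cells, and the bars of IGFBP5 are the longest.

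IGF1R (ENSG00000140443, chr15:98648539-98964530, plus strand, hg38), the main signalling receptor for IGF1 and IGF2, rose in DT-resistant cells only among the 3 comparisons with sensitive cells. Its levels in replicates 2, 5 and 6 were 39.5, 40.1 and 34.0 CPM in sensitive, 31.8, 35.8 and 30.9 CPM in EB-resistant, 39.6, 42.5 and 37.4 CPM in VC-resistant, and 81.8, 81.2 and 61.2 CPM in DT-resistant libraries. All 3 DT-resistant libraries lay above the other 9, which formed a band in which sensitive libraries overlapped both the EB- and VC-resistant ones. The DT-resistant level was 1.97-fold that of sensitive cells (log2FC 0.98 ± 0.11, adjusted p = 2.67e-06). The difference from the other drug lines was tested directly: IGF1R was lower in EB-resistant (log2FC -1.19 ± 0.11, adjusted p = 4.45e-07) and in VC-resistant cells (log2FC -0.91 ± 0.11, adjusted p = 4.87e-05) than in DT-resistant cells. EB-resistant and VC-resistant cells differed from sensitive cells by -0.21 ± 0.11 and 0.07 ± 0.11 log2 units, neither of which passed the test. EB-resistant cells were also below VC-resistant cells (log2FC -0.28 ± 0.11, adjusted p = 0.0415). That call was lost under 7 of 19 alternatives, among them leaving out replicate 2 or 6 of the EB-resistant or replicate 2 or 5 of the VC-resistant line (adjusted p = 0.0510 to 0.130 over the 7).

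INSR (ENSG00000171105, chr19:7112255-7294414, minus strand), the insulin receptor, which can also pair with IGF1R in hybrid receptors, moved in opposite directions in the EB- and DT-resistant lines. It stood at 3.11, 2.84 and 3.37 CPM in sensitive, 0.521, 1.45 and 0.966 CPM in EB-resistant, 4.20, 5.48 and 4.14 CPM in VC-resistant, and 7.60, 7.65 and 6.22 CPM in DT-resistant libraries. The 4 groups did not overlap, in the order EB-resistant, sensitive, VC-resistant, DT-resistant. INSR was 3.17-fold lower in EB-resistant cells (log2FC -1.66 ± 0.26, adjusted p = 6.31e-05) and 2.30-fold higher in DT-resistant cells (log2FC 1.20 ± 0.23, adjusted p = 0.000411). DT-resistant cells held 7.29-fold the INSR level of EB-resistant cells (log2FC of EB-resistant against DT-resistant -2.87 ± 0.26, adjusted p = 3.16e-07), and VC-resistant cells also lay above EB-resistant cells (EB-resistant against VC-resistant log2FC -2.23 ± 0.26, adjusted p = 3.40e-06). The neighbouring steps of that order were less certain. VC-resistant against sensitive gave 0.57 ± 0.24 log2 units (adjusted p = 0.0518), and passed under 9 of 19 alternatives, including the fits that left out replicate 2 of any resistant line or replicate 5 of the EB-resistant line (adjusted p = 0.00996 to 0.0495 over the 9). VC-resistant against DT-resistant gave -0.63 ± 0.23 log2 units (adjusted p = 0.0744). With the replicate number as a block it was -0.65 ± 0.21 and passed (adjusted p = 0.0399). The evidence for that pairing is limited. Deviations of VC-resistant replicate 5 from its group mean correlated with DT-resistant replicate 6 (r = 0.136) nearly as with replicate 5 (r = 0.151). The INSR difference also passed without EB-resistant replicate 2 (adjusted p = 0.0256) or 5 (adjusted p = 0.0377).

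IGF2R (ENSG00000197081, chr6:159969082-160113507, plus strand), the clearance receptor for IGF2, had the highest level of the receptors per unit of gene length in the deposited table. In sensitive cells it stood at 20.1 ± 3.24 CPM per kb of gene model (SD, n = 3), against 2.72 ± 0.243 CPM per kb for IGF1R and 0.287 ± 0.0246 CPM per kb for INSR. By library it was 530, 451 and 384 CPM in sensitive, 702, 741 and 649 CPM in EB-resistant, 559, 525 and 480 CPM in VC-resistant, and 585, 635 and 534 CPM in DT-resistant cells. The EB-resistant libraries were all above the rest and the DT-resistant libraries lay just above the highest sensitive library, while VC-resistant and sensitive libraries overlapped. IGF2R rose 1.53-fold in EB-resistant cells (log2FC 0.62 ± 0.11, adjusted p = 0.000135) and 1.28-fold in DT-resistant cells (log2FC 0.36 ± 0.10, adjusted p = 0.00795). In VC-resistant cells the difference was 0.20 ± 0.10 (adjusted p = 0.126), and it passed without sensitive replicate 2 (log2FC 0.32, adjusted p = 0.0131). EB-resistant cells were above VC-resistant cells (log2FC 0.42 ± 0.10, adjusted p = 0.00294) and, with a call lost under 8 of 19 alternatives (adjusted p = 0.0560 to 0.175 over the 8), above DT-resistant cells (log2FC 0.26 ± 0.10, adjusted p = 0.0487). Those 8 included the fits that left out replicate 2 or 5 of the EB-resistant, 2 or 6 of the DT-resistant, 5 or 6 of the VC-resistant, or 5 of the sensitive cells.

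The balance of the signalling receptors followed from these levels. INSR over IGF1R, both per kb, was 0.107 ± 0.0189 in sensitive and 0.0378 ± 0.0156 in EB-resistant cells, against 0.148 ± 0.0156 and 0.124 ± 0.00606 in the VC- and DT-resistant lines (SD, n = 3). The EB-resistant ratios, 0.0211 to 0.0520, lay below all others, and the DT-resistant ratios, 0.120 to 0.131, overlapped the sensitive ones, 0.0910 to 0.128. In DT-resistant cells both receptors rose, and in EB-resistant cells INSR fell with IGF1R not called.

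IRS1 (ENSG00000169047, chr2:226731312-226799820, minus strand), the docking protein downstream of both kinases, had the narrowest range of group means among the 10 genes, 0.40 log2 units. Its levels were 85.6, 93.6 and 95.1 CPM in sensitive, 95, 110 and 121 CPM in EB-resistant, 122, 97.7 and 85.9 CPM in VC-resistant, and 92.0, 88.5 and 66.7 CPM in DT-resistant libraries. Every resistant group overlapped the sensitive libraries, and none of the 3 comparisons passed the test: the log2FC was 0.25 ± 0.14 (95% interval -0.05 to 0.55) for the EB-, 0.16 ± 0.14 (-0.14 to 0.46) for the VC- and -0.15 ± 0.14 (-0.45 to 0.15) for the DT-resistant line. Without the 4 replicate 2 libraries the EB-resistant difference (log2FC 0.29, adjusted p = 0.0352) and the DT-resistant difference (log2FC -0.28, adjusted p = 0.0464) passed, in opposite directions. Between these lines IRS1 was higher in EB-resistant than DT-resistant cells (log2FC 0.40 ± 0.14, adjusted p = 0.0260), a call lost without EB-resistant replicate 5 or 6 or DT-resistant replicate 6 (adjusted p = 0.0706 to 0.104).

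IRS2 (ENSG00000185950, chr13:109752695-109786583, minus strand), the second docking protein, rose in VC-resistant and DT-resistant cells. It stood at 60.4, 52.4 and 44.1 CPM in sensitive, 71.9, 80.8 and 77.9 CPM in EB-resistant, 203, 122 and 103 CPM in VC-resistant, and 206, 149 and 96.2 CPM in DT-resistant libraries. Every resistant library was above every sensitive one, and in the VC- and DT-resistant lines replicate 2 was the highest library and replicate 6 the lowest. The rise was 2.73-fold in VC-resistant (log2FC 1.45 ± 0.31, adjusted p = 0.00322) and 2.87-fold in DT-resistant cells (log2FC 1.52 ± 0.31, adjusted p = 0.00221). Without the replicate 2 libraries both calls held. EB-resistant cells differed from sensitive cells by 0.56 ± 0.31 log2 units (95% interval -0.14 to 1.25, adjusted p = 0.154), which passed in 3 of 19 alternatives (adjusted p = 0.000800 to 0.0469), among them the fit without the 4 replicate 2 libraries. IRS2 was lower in EB-resistant than in VC-resistant (log2FC -0.89 ± 0.31, adjusted p = 0.0305) and DT-resistant cells (log2FC -0.97 ± 0.31, adjusted p = 0.0224). Those 2 calls were each lost in 5 of 19 alternatives, without any single EB-resistant library, without replicate 2 of the higher line, or without all 4 replicate 2 libraries (adjusted p = 0.0646 to 0.115 and 0.0519 to 0.0983). VC-resistant and DT-resistant cells differed by -0.07 ± 0.30 log2 units, with a 95% interval from -0.75 to 0.61.

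IRS2 over IRS1, both per kb, therefore shifted. The ratio was 0.708 ± 0.150 in sensitive and 0.876 ± 0.0729 in EB-resistant cells, against 1.69 ± 0.310 and 2.19 ± 0.50 in the VC- and DT-resistant lines (SD, n = 3). In sensitive and EB-resistant libraries IRS1 was the more abundant substrate per kb, with ratios up to 0.929, and in all VC- and DT-resistant libraries IRS2 was, with ratios from 1.48 to 2.75.

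**Figure D2:**
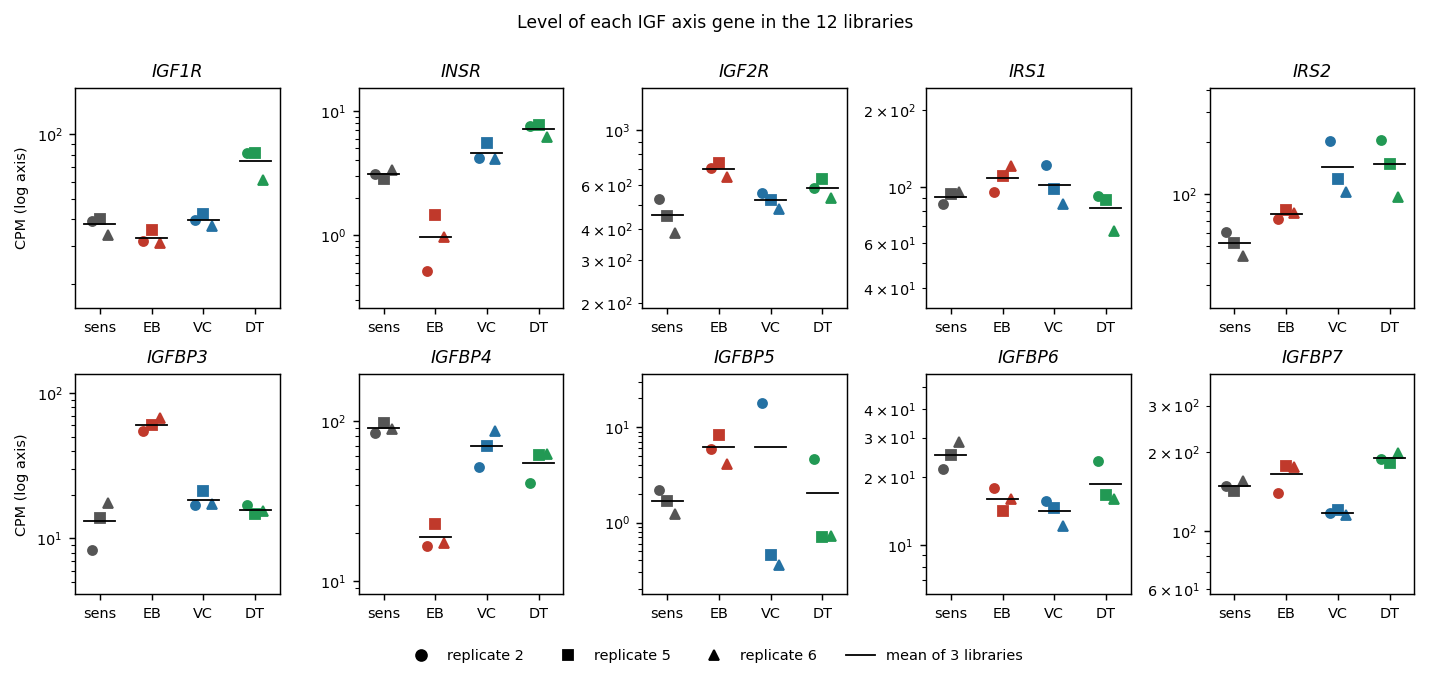
CPM of each of the 10 genes in the 12 libraries on a logarithmic axis, with sensitive (sens), EB-, VC- and DT-resistant groups side by side, symbols for replicates 2, 5 and 6, and a line at the mean of 3 libraries. The DT-resistant libraries of IGF1R (61.2 to 81.8 CPM) stand above all others, the EB-resistant libraries stand apart for IGFBP3 (54.4 to 67.3 CPM) and IGFBP4 (16.6 to 22.7 CPM), and IGFBP5 in VC-resistant cells runs from 0.354 to 17.9 CPM.

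Among the binding proteins, IGFBP3 (ENSG00000146674, chr7:45912245-45921874, minus strand), the main IGF carrier of the circulation, rose in EB-resistant cells. It stood at 8.27, 13.9 and 17.4 CPM in sensitive, 54.4, 60.5 and 67.3 CPM in EB-resistant, 17, 21.2 and 17.4 CPM in VC-resistant, and 17, 14.7 and 15.5 CPM in DT-resistant libraries. The EB-resistant libraries were all far above the other 9, among which the sensitive libraries had the widest spread. The rise was 4.60-fold (log2FC 2.2 ± 0.21, adjusted p = 1.54e-06), and IGFBP3 was also higher in EB-resistant than in VC-resistant (log2FC 1.71 ± 0.20, adjusted p = 1.26e-05) and DT-resistant cells (log2FC 1.95 ± 0.20, adjusted p = 4.92e-06). VC-resistant and DT-resistant cells differed from sensitive cells by 0.49 ± 0.20 (adjusted p = 0.0586) and 0.25 ± 0.20 log2 units (adjusted p = 0.306). Without sensitive replicate 6, the highest sensitive library, these became 0.75 (adjusted p = 0.00417) and 0.51 (adjusted p = 0.0307) and both passed, and without the 4 replicate 2 libraries they were 0.30 (adjusted p = 0.0333) and -0.04 (adjusted p = 0.766).

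IGFBP4 (ENSG00000141753, chr17:40443450-40457725, plus strand), a binding protein that restrains IGF action until it is cleaved by the protease PAPP-A, fell in EB-resistant and DT-resistant cells. It stood at 84.2, 97.8 and 89.6 CPM in sensitive, 16.6, 22.7 and 17.4 CPM in EB-resistant, 51.6, 70.0 and 86.3 CPM in VC-resistant, and 41.2, 61.1 and 62.4 CPM in DT-resistant libraries. The EB-resistant libraries were the lowest, the DT-resistant libraries lay below all sensitive ones, and VC-resistant replicate 6 reached the sensitive range. The decrease was 4.80-fold in EB-resistant (log2FC -2.26 ± 0.21, adjusted p = 2.86e-06) and 1.65-fold in DT-resistant cells (log2FC -0.72 ± 0.20, adjusted p = 0.00847). In VC-resistant cells the log2FC was -0.38 ± 0.20 (adjusted p = 0.123), and without VC-resistant replicate 6 it was -0.57 and passed (adjusted p = 0.0284). EB-resistant cells were lower than VC-resistant (log2FC -1.88 ± 0.21, adjusted p = 1.28e-05) and DT-resistant cells (log2FC -1.54 ± 0.21, adjusted p = 6.23e-05).

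IGFBP5 (ENSG00000115461, chr2:216672105-216695549, minus strand), a binding protein that also attaches to extracellular matrix, differed widely between libraries of the VC-resistant and of the DT-resistant line. Its raw counts in replicates 2, 5 and 6 were 100, 85 and 56 in sensitive, 286, 410 and 194 in EB-resistant, 683, 21 and 19 in VC-resistant, and 219, 32 and 31 in DT-resistant cells. EB-resistant libraries were all above the sensitive ones, while in the VC- and DT-resistant lines replicate 2 lay above, and replicates 5 and 6 below, every sensitive library. VC-resistant replicate 2 was at 43.9-fold, and DT-resistant replicate 2 at 6.57-fold, the mean CPM of the other libraries of its line. None of the 6 comparisons passed the test in the fit of all 12 libraries, whose spread is shared by the 4 groups, with log2FC against sensitive cells of 1.85 ± 1.36 for the EB- (adjusted p = 0.278), 1.85 ± 1.36 for the VC- (adjusted p = 0.282) and 0.27 ± 1.41 for the DT-resistant line (adjusted p = 0.884). Fitted with the EB-resistant and sensitive libraries alone, the EB-resistant difference was 1.85 ± 0.28 and passed (adjusted p = 0.000242).

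Without the 4 replicate 2 libraries, IGFBP5 rose in EB-resistant cells (log2FC 2.09 ± 0.30, adjusted p = 2.30e-05) and fell in VC-resistant (log2FC -1.84 ± 0.41, adjusted p = 0.00129) and DT-resistant cells (log2FC -1.03 ± 0.38, adjusted p = 0.0289). EB-resistant cells then exceeded VC-resistant cells by 3.93 ± 0.36 (adjusted p = 2.13e-07) and DT-resistant cells by 3.12 ± 0.34 log2 units (adjusted p = 1.33e-06). Leaving out VC-resistant replicate 2 alone gave -2.05 ± 0.98 in VC-resistant against sensitive cells (adjusted p = 0.119), a call for EB-resistant against sensitive cells (log2FC 1.86, adjusted p = 0.0459) and one for EB-resistant against VC-resistant cells (log2FC 3.90, adjusted p = 0.00804). Leaving out DT-resistant replicate 2 alone gave -1.24 ± 1.81 in DT-resistant against sensitive cells (adjusted p = 0.600). IGFBP5 was the single gene, of 11261 with at least 5 CPM in their highest group, at 5-fold or more of its line's other libraries in replicate 2 of both lines, a threshold chosen after seeing the data. A further threshold chosen after seeing the data was at least 10-fold in VC-resistant replicate 2 alone. Besides IGFBP5, it was met by HAS2, B3GALNT1 and PNMA8A, at 30.9-, 11.9- and 11.3-fold. In these replicate 2 libraries 1.43% (VC-resistant) and 1.36% (DT-resistant) of the 11261 genes were at least 2-fold from the line's other libraries, against 0.258% to 0.764% for the other 10 libraries. What set these libraries apart was not tested.

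**Figure D3:**
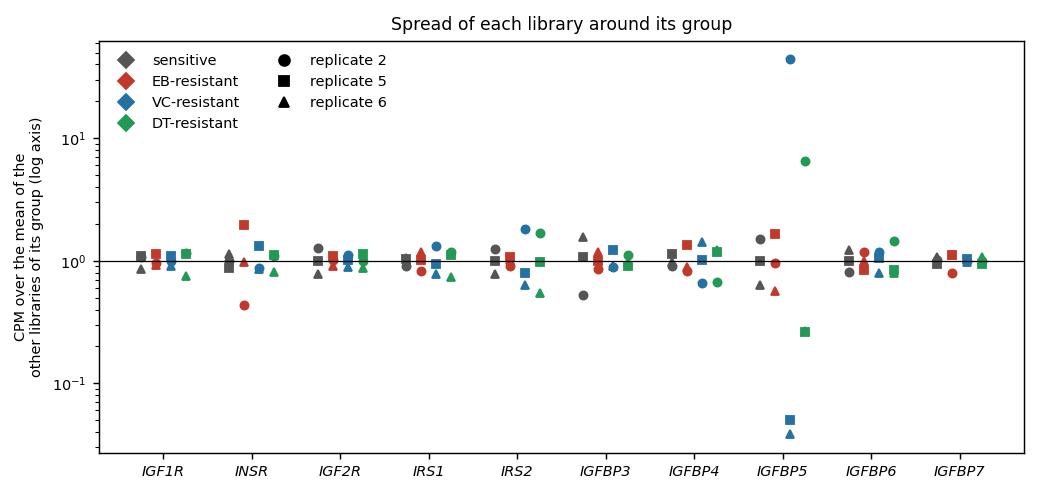
CPM of each of the 10 genes in each library divided by the mean of the other libraries of its group, on a logarithmic axis, with colours for groups and symbols for replicates. Most points lie close to the line at 1, and the IGFBP5 points of VC-resistant replicate 2 (43.9) and DT-resistant replicate 2 (6.57) stand far above it.

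IGFBP6 (ENSG00000167779, chr12:53097436-53102345, plus strand), a binding protein that prefers IGF2, fell in all 3 resistant lines. It stood at 21.7, 25.0 and 28.6 CPM in sensitive, 17.9, 14.2 and 16.1 CPM in EB-resistant, 15.7, 14.6 and 12.1 CPM in VC-resistant, and 23.6, 16.6 and 16.1 CPM in DT-resistant libraries. EB- and VC-resistant libraries all lay below the sensitive ones, and DT-resistant replicate 2 lay within the sensitive range. The decrease was 1.56-fold for the EB- (log2FC -0.65 ± 0.15, adjusted p = 0.00234), 1.78-fold for the VC- (log2FC -0.83 ± 0.16, adjusted p = 0.000395) and 1.34-fold for the DT-resistant line (log2FC -0.42 ± 0.15, adjusted p = 0.0291). The DT-resistant call was lost without sensitive replicate 5 or 6 or DT-resistant replicate 5 or 6 (adjusted p = 0.0644 to 0.133). No comparison between resistant lines passed for IGFBP6.

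IGFBP7 (ENSG00000163453, chr4:57030773-57110385, minus strand), a secreted relative of the binding proteins with low affinity for IGFs, was lower in VC-resistant and higher in DT-resistant cells. It stood at 149, 142 and 154 CPM in sensitive, 140, 177 and 176 CPM in EB-resistant, 117, 120 and 115 CPM in VC-resistant, and 189, 181 and 198 CPM in DT-resistant libraries. VC-resistant libraries were all below and DT-resistant libraries all above the sensitive ones, and EB-resistant libraries overlapped them. The decrease was 1.26-fold in VC-resistant (log2FC -0.34 ± 0.08, adjusted p = 0.00286) and the rise 1.28-fold in DT-resistant cells (log2FC 0.35 ± 0.08, adjusted p = 0.00192). The direct difference between these lines was -0.69 ± 0.08 log2 units (adjusted p = 4.39e-05), and the 3 same-numbered pairs gave -0.70, -0.59 and -0.78 log2 CPM. EB-resistant cells differed from sensitive cells by 0.15 ± 0.08 (adjusted p = 0.142), or 0.26 without EB-resistant replicate 2 (adjusted p = 0.00640). They were above VC-resistant cells (log2FC 0.49 ± 0.08, adjusted p = 0.000132) and slightly below DT-resistant cells (log2FC -0.20 ± 0.08, adjusted p = 0.0464), the last with 12 of 19 alternatives losing the call (adjusted p = 0.0501 to 0.293, highest without EB-resistant replicate 2). The gene model overlaps that of POLR2B on the other strand by 386 bases, and POLR2B counts reached 157% of those of IGFBP7. Whether reads were assigned by strand is not given in the sources used here.

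Summed per kb over IGFBP2 to IGFBP7, binding protein transcripts stood at 141 ± 6.04 CPM per kb in sensitive cells and at 125 ± 12.7, 108 ± 4.86 and 141 ± 4.78 CPM per kb in the EB-, VC- and DT-resistant lines (SD, n = 3). IGFBP7 was the largest share in each group, 54.6 ± 2.52% in sensitive cells and 67.9 ± 1.99%, 56.4 ± 2.85% and 69.7 ± 1.20% in the same order of resistant lines. IGFBP4 made up 29.2 ± 2.06% in sensitive cells and 6.83 ± 0.838%, 28.9 ± 6.10% and 17.7 ± 3.66% in the resistant lines. In EB-resistant cells IGFBP3 took 10.6 ± 0.673% of the sum and so exceeded IGFBP4 per kb, whereas in sensitive cells it took 2.04 ± 0.638%. IGFBP6 lay between 9.67% and 13.2% on average, and IGFBP5 stayed below 1% in every group mean.

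**Figure D4:**
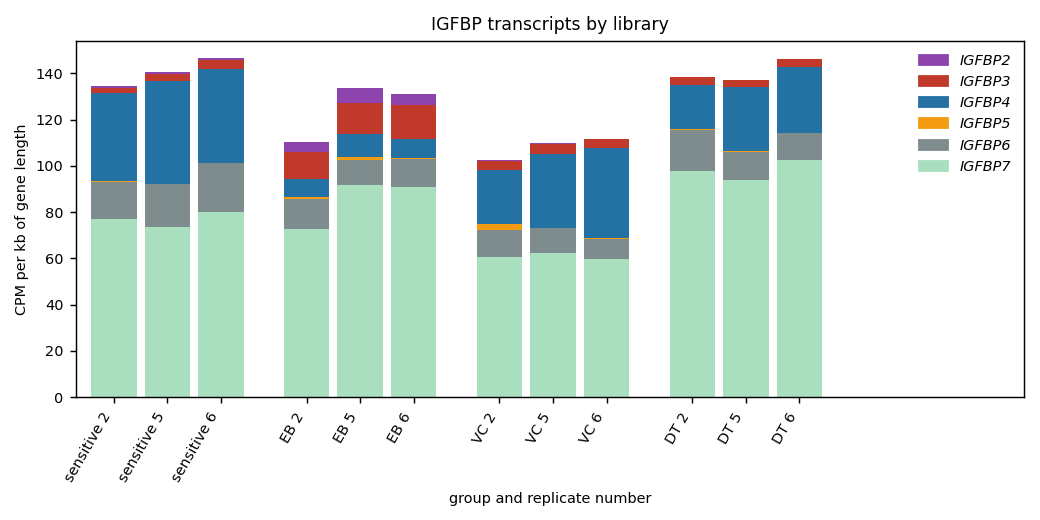
Stacked CPM per kb of gene length for IGFBP2 to IGFBP7 in each of the 12 libraries, grouped by line and replicate number. IGFBP7 is the largest block throughout, the IGFBP4 block shrinks to a mean of 6.83% of the sum in EB-resistant cells, and the IGFBP3 block grows there to 10.6%.

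The list of ligands and further carriers held 7 genes, of which IGF1, INS, IGFBP1, IGFALS and IGFBPL1 have no entry in the table used. IGF2 had too few counts to be tested, with 0 in all sensitive libraries, 6, 4 and 1 in EB-resistant, 1, 0 and 2 in VC-resistant, and 0, 2 and 1 in DT-resistant libraries. IGFBP2 (chr2:216632828-216664436), the neighbour of IGFBP5 on the opposite strand across a gap of 7668 bases, rose in EB-resistant cells and fell in the other resistant lines. It stood at 5.61, 4.45 and 4.09 CPM in sensitive, 20.7, 31.1 and 24 CPM in EB-resistant, 2.18, 0.506 and 0.616 CPM in VC-resistant, and 0.149, 0.309 and 0.184 CPM in DT-resistant libraries, with no overlap between any of the 4 groups. The log2FC was 2.42 ± 0.36 (adjusted p = 0.000132), -2.16 ± 0.42 (adjusted p = 0.00103) and -4.45 ± 0.53 (adjusted p = 2.47e-05) in the EB-, VC- and DT-resistant lines. Like IGFBP5, IGFBP2 was highest in replicate 2 among the VC-resistant libraries, at 3.88-fold the mean of the others, but not among the DT-resistant ones.

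Proteases that cut binding proteins, and the inhibitors of those proteases, made a list of 10 genes, of which 4 rose and 2 fell with EB, 5 rose and 2 fell with VC, and 7 rose and 3 fell with DT resistance, with medians of 0.22, 0.28 and 0.58 log2 units. The share of all genes called in these comparisons was 56.1%, 55% and 59.1%, so the EB count was near the background, and 4 genes with EB and 3 with VC did not pass. PAPPA, which encodes the protease that cleaves IGFBP4, stood at 28.6, 29.1 and 26.7 CPM in sensitive, 122, 158 and 114 CPM in EB-resistant, 132, 139 and 115 CPM in VC-resistant, and 231, 263 and 258 CPM in DT-resistant libraries. All resistant libraries were above the sensitive ones and the DT-resistant ones highest, with log2FC of 2.22 ± 0.11 (adjusted p = 6.25e-10), 2.19 ± 0.11 (adjusted p = 1.56e-09) and 3.15 ± 0.12 (adjusted p = 3.08e-11) in the order EB, VC, DT. Its relative PAPPA2, whose product cleaves IGFBP3 and IGFBP5, rose from 1.18 ± 1.10 CPM to 7.83 ± 3.06, 21 ± 8.96 and 53.1 ± 7.41 CPM (SD, n = 3; log2FC 2.74, 4.15 and 5.50, adjusted p = 0.00296, 0.000242 and 3.72e-05).

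STC1, which encodes stanniocalcin 1, an inhibitor of PAPP-A, went the other way. It stood at 252, 202 and 174 CPM in sensitive, 2.69, 4.62 and 4.24 CPM in EB-resistant, 15.2, 18 and 30 CPM in VC-resistant, and 8.40, 24 and 26.8 CPM in DT-resistant libraries. Every resistant library was far below every sensitive one, by 54.3-, 9.91- and 10.6-fold (adjusted p = 9.93e-06, 0.000196 and 0.000144). STC2, the other stanniocalcin gene and also listed as an inhibitor, falls outside the naming rule and was added after its values were seen. Its means were 684, 619, 846 and 1529 CPM in sensitive, EB-, VC- and DT-resistant cells. Those of STC1 were lower in every group, at 209, 3.85, 21.1 and 19.7 CPM. STC2 rose in DT-resistant cells alone among the 3 comparisons (log2FC 1.16 ± 0.16, adjusted p = 4.20e-05). The fall of STC1 therefore does not describe the stanniocalcin genes together. HTRA1, a secreted serine protease, fell from 165 ± 18.4 CPM to 11.8 ± 0.858, 2.91 ± 1.06 and 11.9 ± 7.19 CPM (adjusted p = 9.56e-05, 1.72e-05 and 0.000102). CTSD, which encodes cathepsin D, rose in all 3 lines (log2FC 0.94, 0.36 and 0.57), as did ADAM28, at under 1 CPM in every group.

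**Figure D5:**
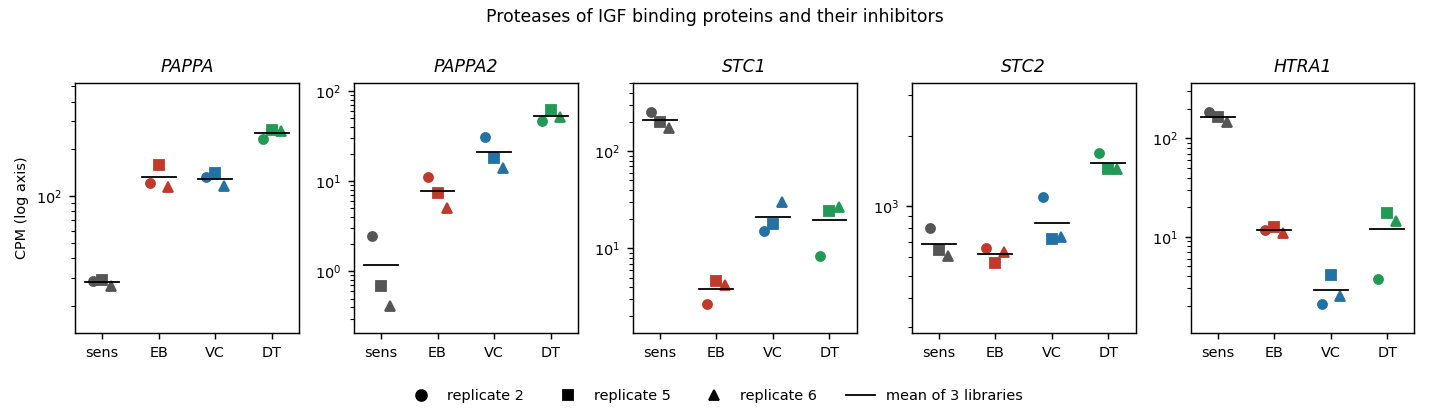
CPM of PAPPA, PAPPA2, STC1, STC2 and HTRA1 in the 12 libraries on a logarithmic axis, with symbols for replicates 2, 5 and 6 and a line at the mean of 3 libraries. PAPPA and PAPPA2 are higher, and STC1 and HTRA1 lower, in every resistant library than in every sensitive library.

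The list of receptor adaptors and regulators held both directions in each line. Of 21 genes tested 4 rose and 12 fell with EB, 7 rose and 5 fell with VC, and 6 rose and 7 fell with DT resistance (medians -0.29, 0.11 and -0.11 log2 units), against 56.1%, 55% and 59.1% of all genes called. The VC and DT counts were near those shares. SOCS2, a suppressor of cytokine and growth hormone signalling, fell from 47.7 ± 4.61 CPM to 5.18 ± 0.539, 11.1 ± 1.42 and 12.1 ± 1.01 CPM (adjusted p = 3.71e-11, 3.70e-09 and 4.84e-09). The adaptor genes SH2B3 and APPL1 fell in all 3 lines, and SH2B1, whose product binds the insulin receptor, rose in all 3 (log2FC 1.01, 0.67 and 0.87). GRB10, an adaptor that inhibits both receptor kinases, rose from 4.87, 0.972 and 0.631 CPM in the sensitive libraries to means of 25.6, 15.1 and 14.1 CPM. Of the genes named here that act on the insulin receptor itself, ENPP1, which inhibits it, and PTPRF, a receptor phosphatase, had the same signs as INSR. SH2B1 and GRB10 did not, as both rose in EB-resistant cells, where INSR fell. INSR itself was not called in VC-resistant cells. The regulators on the list that are not named were not set against INSR. ENPP1 changed by -1.35, 0.86 and 1.24 log2 units in the order EB, VC, DT (adjusted p = 1.61e-05, 0.000644 and 3.14e-05), and PTPRF by -1.21, 0.22 and 0.43 (adjusted p = 1.53e-08, 0.0399 and 0.000427).

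FOXO factors are held out of the nucleus when insulin or IGF signalling is active. Of 14 genes in the list of these factors and their textbook targets, 7 rose and 3 fell with EB, 2 rose and 5 fell with VC, and 4 rose and 4 fell with DT resistance, against 56.1%, 55% and 59.1% of all genes called, so the VC and DT counts were near the background. FOXO3 rose in all 3 lines, from 59.5 ± 1.42 CPM to 101 ± 4.74, 129 ± 29.7 and 145 ± 23.3 CPM (adjusted p = 0.000371, 2.15e-05 and 4.95e-06). KLF15, a transcription factor gene of glucose and amino acid metabolism, rose in EB-resistant cells (log2FC 1.71 ± 0.23, adjusted p = 2.35e-05). It fell in DT-resistant cells (log2FC -1.19 ± 0.25, adjusted p = 0.000842), with signs opposite to those of INSR. TRIB1 and FOXO6, on the same list, did not share this pattern and rose in both of these lines. A relation of these genes to INSR was not tested. SESN2 and SESN3, which encode stress-induced sestrins, fell in all 3 lines. Of the 3 genes for IGF2 mRNA-binding proteins, IGF2BP2 rose and IGF2BP1 fell in each line, by 0.81, 0.72 and 0.38 and by -0.33, -0.43 and -0.49 log2 units in the order EB, VC, DT.

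Between the resistant lines, 3 of the 10 genes were higher and 4 lower in EB-resistant than VC-resistant cells, where 58.4% of all genes were called (29.6% higher, 28.8% lower). Against DT-resistant cells 3 were higher and 5 lower in EB-resistant cells (57.2% of all genes called, 28.4% higher and 28.8% lower), a count that fell from 8 to 5 without EB-resistant replicate 2 or 5 or DT-resistant replicate 2 or 6. VC-resistant and DT-resistant cells differed in 2 of the 10, IGF1R and IGFBP7, both lower in VC-resistant cells (15.8% of all genes called, 7.08% higher and 8.71% lower). Without the 4 replicate 2 libraries the last count was 4, adding INSR and IGFBP3, with 21.5% of all genes called.

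The 3 genes with the widest range of group means were INSR (2.92 log2 units), IGFBP4 (2.27) and IGFBP3 (2.26). The genes whose log2 CPM followed them most closely over the 12 libraries were HHAT, KRT81 and BORCS5 for INSR (Pearson r = 0.987, 0.978 and 0.972), MYEOV, TBC1D1 and GNA15 for IGFBP4 (r = 0.983, 0.981 and 0.981), and BID, NDUFA6 and TMEM131L for IGFBP3 (r = 0.990, 0.980 and 0.973). These libraries fall into 4 groups, of which all pairs but VC- and DT-resistant cells (15.8% called) differed in most genes tested. The coefficients therefore describe the group pattern and carry no test. KRT81, a keratin gene with near copies, stood at means of 400, 45.2, 1030 and 1513 CPM in sensitive, EB-, VC- and DT-resistant cells. BID, whose product promotes cell death, stood at 28.5, 58.1, 34.2 and 31.0 CPM in the same order.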

How the data were processed

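The authors deposited raw counts per gene and normalised counts for 12 libraries. Per the submitters' processing notes, the tools were bcl2fastq 2.20.0, STAR 2.7.10b with hg38, featureCounts 2.0.1 for the counting and DESeq2 1.38.3 for the scaling. Each value in the deposited normalised signal columns equals its count divided by a DESeq2 size factor within 0.05. Not given in the sources used here were the strand setting, the annotation release and drug doses.

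From the deposited counts, genes were filtered by filterByExpr, scaled by TMM and fitted in 1 quasi-likelihood model with 4 group means (edgeR 4.0.16, R 4.3.3, 8 residual degrees of freedom). Benjamini-Hochberg adjustment covered 17114 genes, with a threshold of 0.05. Standard errors were derived from the F statistic. CPM per kb divides CPM by the gene length in the deposited table.

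Members and lists were chosen with earlier results of these data known. Other genes named are all ligands and carriers, DUSP6 and CCND1, up to 3 per list, direction and comparison with sensitive by adjusted p, and 3 per member by correlation for the 3 members of widest range.

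Deviations from group means correlated at 0.151 to 0.337 in same-numbered VC- and DT-resistant pairs, each above 0.1, which was taken as a pairing of these lines. The evidence is limited: the unmatched VC-resistant replicate 5 and DT-resistant replicate 6 also passed 0.1 (r = 0.136). The other unmatched pairs of these lines lay at 0.0339 or below, and the highest value, 0.337, was between the replicate 2 libraries. Deviations from a group mean cancel within the group, which lowers unmatched values where matched ones are high. Low unmatched values are thus no separate evidence of a pairing. In no other pair of groups did all 3 same-numbered pairs pass 0.1. No duplicate libraries were found. Tested on data simulated for EB-resistant against sensitive (12751 genes), the fit found 6, 31, 43 and 50 of 50 planted changes of 1.25-, 1.5-, 2- and 4-fold and called 4 unchanged genes. The planted changes were a far smaller share of genes than the 56.1% called in the data, so this recovery does not carry over to them. DESeq2 1.42.0 was an alternative.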

Additional observations from a re-analysis of the deposited data

Results flagged for a closer look

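In the EB- and DT-resistant lines INSR was called in opposite directions against sensitive cells, and the direct test of the difference was passed: EB-resistant against DT-resistant gave a log2FC of -2.87 (edgeR quasi-likelihood adjusted p = 3.16e-07). The same-numbered pairs gave -3.76, -2.37 and -2.63 log2 CPM. As the libraries of these lines did not overlap, any pairing had to give that direction, which adds no support.

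IGFBP7 was called in opposite directions in the VC- and DT-resistant lines, with a direct difference of -0.69 log2 units (edgeR quasi-likelihood adjusted p = 4.39e-05). The libraries of these lines did not overlap, so the direction of the same-numbered pairs was fixed and adds no support. Its overlap with POLR2B was not resolved by strand.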

How the results depend on the processing

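Over 6 comparisons 32 calls were made on the 10 genes, of which 25 were kept under all 19 alternatives (scaling, filter, replicate block, 2-group fits, each library left out, all replicate 2 libraries left out, DESeq2). Of the 28 results without a call, 7 had neither a call nor a change of direction under any alternative. IRS1 in VC-resistant against sensitive cells, and IRS2 and IGFBP5 in VC- against DT-resistant cells, changed direction but were never called. Counts of called members moved as follows: in EB-resistant against sensitive from 5 to 8 with only the 2 groups fitted, and over leave-outs between 5 and 9; in VC-resistant against sensitive from 3 to 7 with the replicate block and 5 with DESeq2, and over leave-outs between 3 and 7; in EB-resistant against DT-resistant over leave-outs between 5 and 8; and in VC-resistant against DT-resistant between 2 and 4. Genes called between VC- and DT-resistant cells, 2702, ranged from 1722 (without VC-resistant replicate 6) to 3714 over leave-outs and reached 3514 with the replicate block. The replicate block was taken as a pairing only for VC- and DT-resistant cells, on limited evidence. There it changed no member call other than that of INSR.

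Directions turned only for results without a call. For IGFBP5, DT-resistant against sensitive was -0.24 with the replicate block, and EB-resistant against VC-resistant was -0.020 without a filter and -0.024 with DESeq2. Leave-out ranges (log2FC) that crossed 0 were, for IGFBP5, -2.05 to 2.44 (VC-resistant against sensitive), -1.24 to 0.68 (DT-resistant against sensitive), -0.59 to 3.93 (EB- against VC-resistant) and -2.33 to 3.11 (VC- against DT-resistant). They were, for IRS1, -0.036 to 0.28 (VC-resistant against sensitive) and -0.031 to 0.33 (EB- against VC-resistant), for IGFBP3 -0.044 to 0.51 (DT-resistant against sensitive) and for IRS2 -0.41 to 0.23 (VC- against DT-resistant). The cause was not tested. The simulation recovered 43 of 50 changes of 2-fold and 6 of 50 of 1.25-fold. It changed a far smaller share of genes than was called in the data, which makes its adjusted p-values stricter. What it recovered therefore sets no limit for differences of the size seen for IRS1 with 3 libraries per group. INSR (in EB-resistant cells) and IGFBP5 rest on few counts.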
